A study of Rattus norvegicus with 12 samples.

Results

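The genes described here are 7 members of the interferon response in rat lung: the transcription factor genes Irf1 and Irf7, the antiviral effector genes Mx1, Mx2, Oas1a and Gbp2, and the chemokine gene Cxcl10. Every probe set that the platform annotation assigns to one of these symbols was taken. This gave 7 of 4736 genes with a probe set of their own, and 9 of the 8740 probe sets tested, 2 each for Irf1 and Irf7 and 1 for each other gene. The genes were chosen with their values on these arrays known, because 1 shocked lung held far more of them than the rest. For these 7 genes, the levels and every comparison that uses the lungs of shocked rats with an open lymph duct or their sham controls are therefore descriptions with no test.

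Lung RNA of male Sprague-Dawley rats was hybridised to 12 Affymetrix rat genome arrays of 1 colour, with 3 in each group. T/HS rats had trauma (a laparotomy) and hemorrhagic shock: blood was drawn until the mean arterial pressure reached 30 mmHg, held there for 90 min, and then given back, and these lungs were injured. T/HS-LDL rats had the same shock after their mesenteric lymph vessels had been tied off and divided, and had no measurable lung injury. T/SS-LDL rats had the ligation, the laparotomy and a sham-shock period with no bleeding, and T/SS rats had the laparotomy and the sham-shock period with the lymph vessels left intact. All 4 groups had a femoral artery and a jugular vein cannulated, and the lung was removed 3 h past the end of the shock or sham period, 4.5 h from its beginning.

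Interferons are secreted when cells sense virus, bacterial products or stray nucleic acid. They act through receptors, Janus kinases and STAT proteins on gene promoters that carry the interferon-stimulated response element (ISRE) or the gamma-activated sequence (GAS). Irf1 and Irf7 encode factors that bind the ISRE and drive further rounds of the response. Mx1 and Mx2 encode dynamin-like GTPases that block virus replication, Oas1a an enzyme that makes the trigger of RNase L, and Gbp2 a GTPase that attacks membranes around microbes. Cxcl10 encodes a secreted protein that draws activated T cells and NK cells into tissue.

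Every group held 1 pair of arrays that hardly differed: the robust SD of their log2 differences was 0.00993 to 0.0548, where the 8 remaining same-group pairs had 0.164 to 0.232. Each such pair (replicates 2 and 3 of T/SS, replicates 1 and 3 of the other groups) was averaged and counted as 1 sample, which left 2 samples per group. Nothing in the labels beyond the word biological says that the replicates are separate animals, so spreads between them may be technical. Array medians were 651 to 680 intensity units, and 8 to 34 probe sets per array shared the array's highest value, which acted as a ceiling. Lung identity was clear: the summed level of the 9 measured epithelial markers was 184162 to 187973 units in T/HS, 183080 to 191990 in T/HS-LDL, 176010 to 185844 in T/SS-LDL and 186436 to 189825 in T/SS. Much of this sum was signal at the ceiling. On T/HS replicate 2, Sftpa1, Sftpb and Sftpc had the array's highest value, 31398 units, and Ager had 31368. Like sums therefore do not show like epithelial levels. Of the 9 markers, 3 lay wholly lower in T/HS than in T/SS (18.4% of all probe sets did) and 1 wholly higher (16.9% did). The largest of these differences was -0.80 on the log2 scale, in Aqp5. In whole lung, a change in the number of cells of a type and a change in RNA per cell cannot be told apart.

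The members were high in T/HS replicate 2 and in no other lung. On that array all 9 member probe sets lay more than 2-fold above the highest of the other 11 arrays, as did 0.789% of all probe sets. These are the values the members were chosen by, and nothing is read from the count.

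Cxcl10 had 30947 intensity units in T/HS replicate 2, against 282 and 276 units in T/HS replicates 1 and 3. It had 383, 308 and 360 units in T/HS-LDL, 165, 187 and 162 units in T/SS-LDL and 192, 179 and 179 units in T/SS. The Cxcl10 value in T/HS replicate 2 was 98.6% of the array's highest value. It lay close to the ceiling but not at it, so the fold over the other T/HS arrays, 111, may be too small. On the other 11 arrays Cxcl10 was a dim probe set, brighter than 19.0% to 37.1% of all probe sets.

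Among the effectors, Mx1 had 22179 units in T/HS replicate 2, against 895 and 878 units in the other T/HS arrays and 593 to 895 units over all other arrays. Mx2 had 8997 units there, against 785 and 783 units in the other T/HS arrays and 470 to 905 units over all others. Gbp2 had 5653 units, against 228 and 222 in the other T/HS arrays and 154 to 228 units over all others. The 3 genes were thus 25.02-fold, 11.5-fold and 25.1-fold above the mean of the other T/HS arrays. Oas1a was already bright: it had 15210 units in T/HS replicate 2, against 3865 and 4253 units in the other T/HS arrays and 2653 to 5267 units over all others, a 3.75-fold difference. The Mx proteins are close relatives, and the annotation names one probe set for each, so signal from one gene on the other's probes was not tested. The probe sets of Cxcl10 and Oas1a are of the kind that can bind more than 1 transcript.

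Both transcription factors were measured with 2 probe sets each, a dimmer and a brighter one. For Irf1 the dimmer set had 11128 units in T/HS replicate 2, against 2686 and 2620 in the other T/HS arrays. The brighter Irf1 set had 24782 units, against 6766 and 6758. These are 4.195-fold and 3.66-fold differences, so the probe sets gave like sizes. For Irf7 the dimmer set had 5156 units in T/HS replicate 2, against 479 and 474 in the other T/HS arrays. The brighter Irf7 set had 23686 units, against 2825 and 2781. The Irf7 differences were 10.8-fold and 8.45-fold, both larger than those of Irf1.

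**Figure D1:**
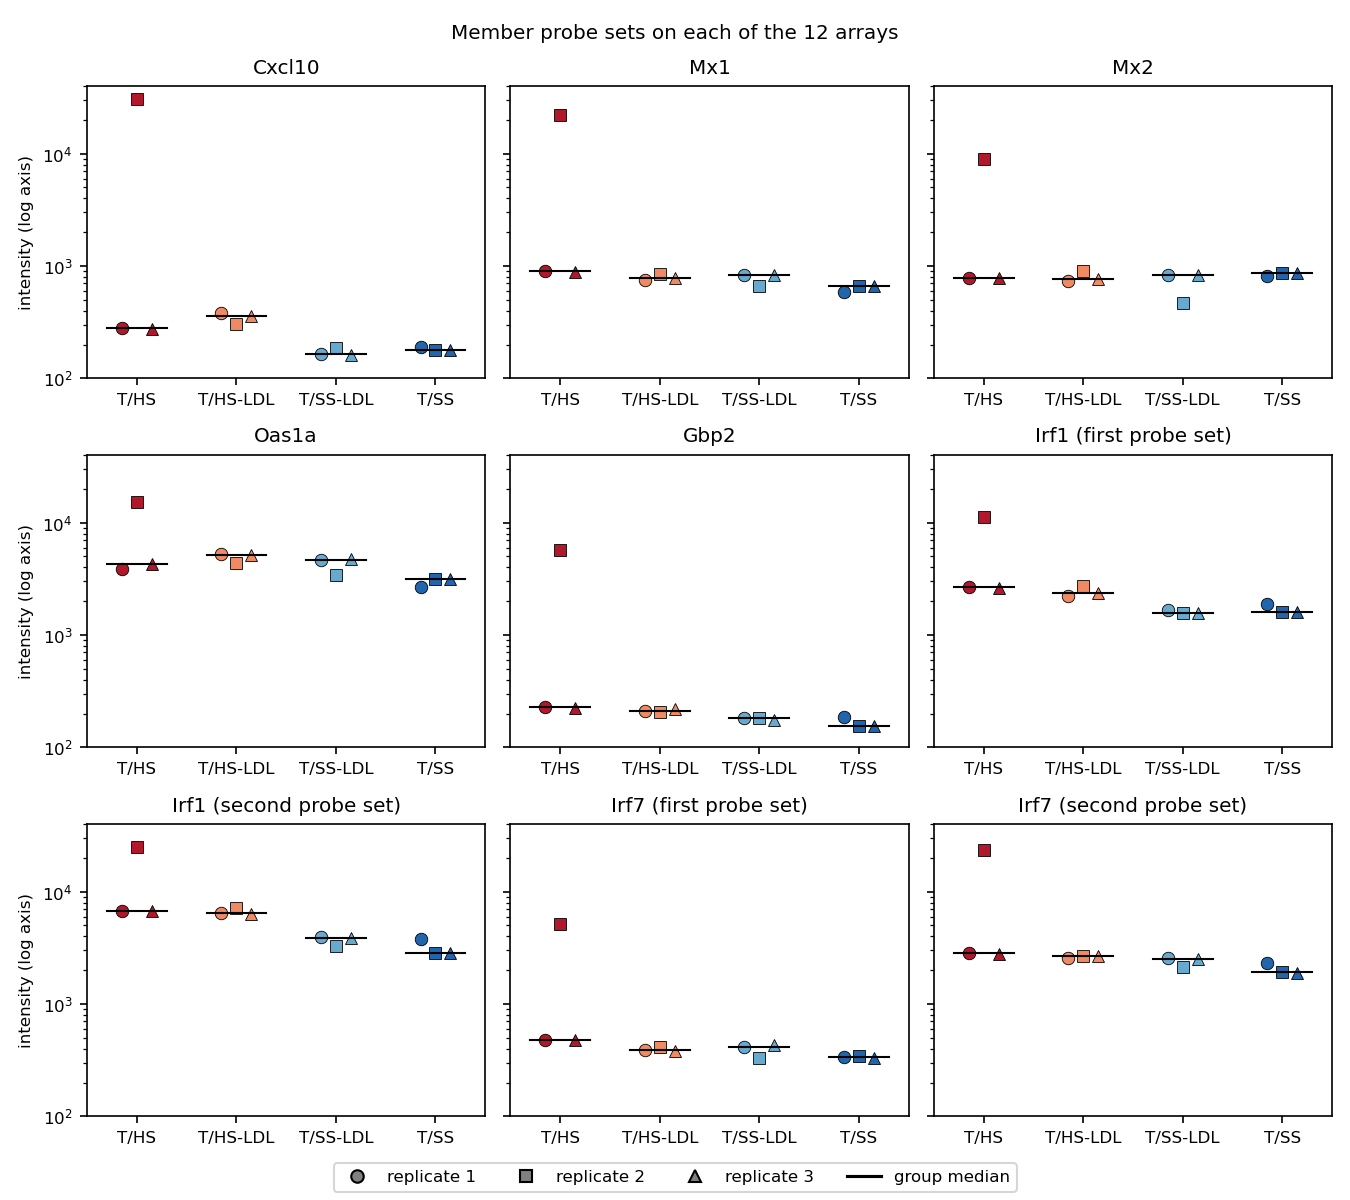
Intensity (log axis) of the 9 member probe sets on each of the 12 arrays, by group (x), with symbols for the replicate number and a line at the group median. In every panel T/HS replicate 2 stands alone, at 5156 to 30947 units, while the remaining arrays of all 4 groups lie close together.

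Set against the whole array, the median difference of the 7 genes between T/HS replicate 2 and the mean of the other T/HS arrays was 3.52 on the log2 scale (each gene by its brighter probe set), where the median of all probe sets was -0.07. Over 2-fold higher levels were found for 206 probe sets (2.36%) and over 2-fold lower levels for 45 (0.515%). By measured fold, Cxcl10 ranked first on the array and Gbp2 and Mx1 the third and the fourth. The second was a probe set of Rsad2 at the array's ceiling, 35.6-fold above the other T/HS arrays, so its fold is a lower bound. Cxcl10 lay just below the ceiling, and the order of Cxcl10 and Rsad2 is not fixed.

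**Figure D2:**
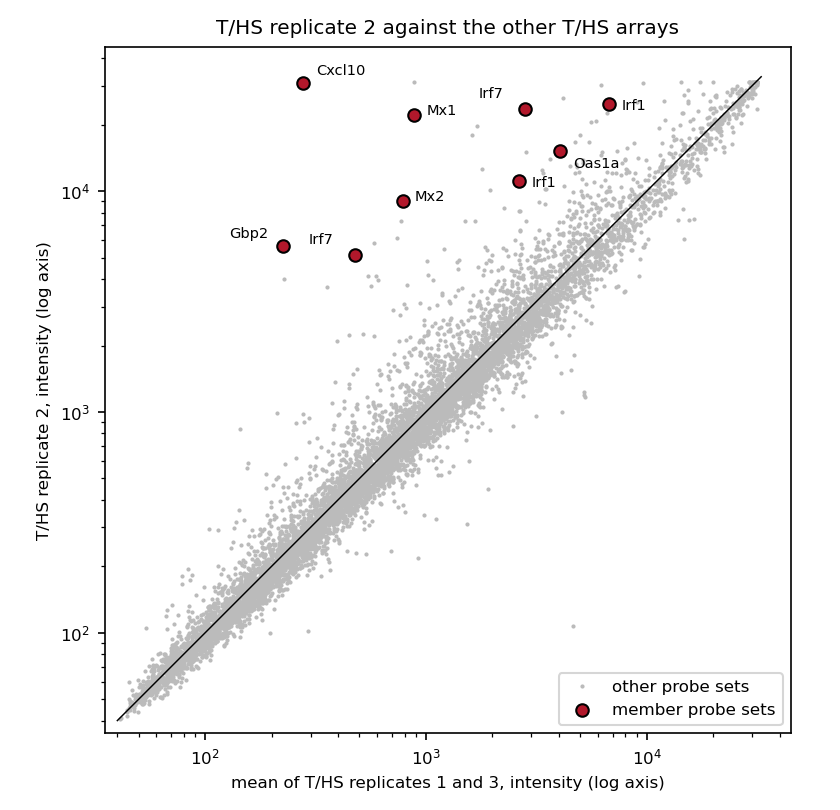
Each of the 8740 probe sets by its mean intensity in T/HS replicates 1 and 3 (x, log axis) and its intensity in T/HS replicate 2 (y, log axis), with the line of equality. The 9 member probe sets (red) lie 3.66-fold to 111-fold above the line, with Cxcl10 near the top of the scale.

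The gene promoters, here 250 bases before to 50 bases after the RefSeq start (build GRCr8), were available for 6 of the 7 genes. They are shown because these genes were high together in 1 lung and because interferon acts through short elements close to the start. Motifs were searched on both strands: the ISRE core as GAAA, then any 2 bases, then GAAA again, GAS as TTCNNNGAA, and the 10-base NF-kB consensus. Capitals mark the matches, and the lines run 5′ to 3′ on the gene's strand.
Cxcl10: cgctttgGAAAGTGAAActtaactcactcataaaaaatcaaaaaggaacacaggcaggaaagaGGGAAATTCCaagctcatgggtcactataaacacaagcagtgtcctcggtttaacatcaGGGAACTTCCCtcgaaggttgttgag
Irf1: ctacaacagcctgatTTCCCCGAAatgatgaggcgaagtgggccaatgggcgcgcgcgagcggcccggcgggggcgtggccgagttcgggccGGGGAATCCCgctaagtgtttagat
Irf7: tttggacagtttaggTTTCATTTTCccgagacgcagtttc
Gbp2: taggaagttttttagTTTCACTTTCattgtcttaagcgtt
Oas1a: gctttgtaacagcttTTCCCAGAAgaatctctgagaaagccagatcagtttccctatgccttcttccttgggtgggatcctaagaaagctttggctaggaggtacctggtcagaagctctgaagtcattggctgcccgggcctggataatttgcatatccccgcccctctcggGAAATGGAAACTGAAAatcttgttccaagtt

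The Cxcl10 stretch (chr14:15988816-15988963, plus strand) held an ISRE core at -243 to -234 from the start. It also held NF-kB matches at -187 to -178 and at -128 to -118, the last being a match on each strand that overlap each other. The Irf1 stretch (chr10:38417778-38417894, plus strand) held a GAS at -142 to -134 and an NF-kB match at -65 to -56, and no ISRE core was found in its window. The Irf7 stretch (chr1:205800068-205800107, minus strand) and the Gbp2 stretch (chr2:234005681-234005720, plus strand) each held 1 ISRE core, at -69 to -60 and at -31 to -22. The Oas1a stretch (chr12:41330252-41330455, plus strand) held 2 overlapping ISRE cores between -41 and -26 and a GAS at -199 to -191. No motif was matched in the Mx1 window. The ISRE core was thus present in 4 of 6 windows, GAS in 2 and NF-kB in 2. Of all 33469 promoters of this length in the table, 3.92% held the ISRE core, 8.87% GAS and 7.51% the NF-kB consensus. A match is a stretch of letters and does not show that a factor bound there.

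Without T/HS replicate 2, the differences of the members between T/HS and either T/SS or T/HS-LDL were smaller, at most 2.06-fold (Irf1, against T/SS). The comparison of T/HS with T/SS addresses shock and lung injury together. With all arrays, 8 of the 9 member probe sets did not overlap between T/HS and T/SS and were higher in T/HS (16.9% of all probe sets were, and 18.4% were lower), and Mx2 overlapped. The median difference of the 7 genes was 1.98 on the log2 scale, against -0.01 for all probe sets. Without T/HS replicate 2 the median was 0.49, against 0.03 for all probe sets, and the T/HS group then rests on 1 averaged sample. In that setting 8 of 9 member probe sets again lay above all T/SS arrays (37.8% of all probe sets did) and Mx2 lay below them (27.7% did).

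The largest of these remaining differences was that of Irf1, an early response gene of both interferon and NF-kB signalling. Its brighter probe set had 6766 and 6758 units in T/HS replicates 1 and 3, against 3784, 2840 and 2843 units in T/SS, a 2.06-fold difference. The dimmer Irf1 set differed by 1.53-fold and Cxcl10 by 1.51-fold. Mx1 (1.42-fold), Oas1a (1.40-fold), Irf7 (1.41-fold and 1.33-fold) and Gbp2 (1.32-fold) differed less, and Mx2 stood at 0.932 of its T/SS level.

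The comparison of T/HS with T/HS-LDL addresses lung injury among shocked rats, and these groups also differ by ligation. With all arrays 4 of 9 member probe sets, those of Mx1, Gbp2 and Irf7, did not overlap and were higher in T/HS (14% of all probe sets were, and 13.3% were lower). The median difference was 1.69 on the log2 scale, against 0.02 for all probe sets. Without T/HS replicate 2 it was -0.0018, against 0.06 for all probe sets. The same 4 probe sets then stayed above T/HS-LDL (38.9% of all probe sets did), by 1.06-fold to 1.19-fold. Cxcl10 and Oas1a lay below it (24.1% did), at 0.825 and 0.849 of the T/HS-LDL level, and both Irf1 probe sets and Mx2 overlapped. For Irf1, the brighter set had 6766 and 6758 units in T/HS replicates 1 and 3, against 6503, 7136 and 6347 units in T/HS-LDL.

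**Figure D3:**
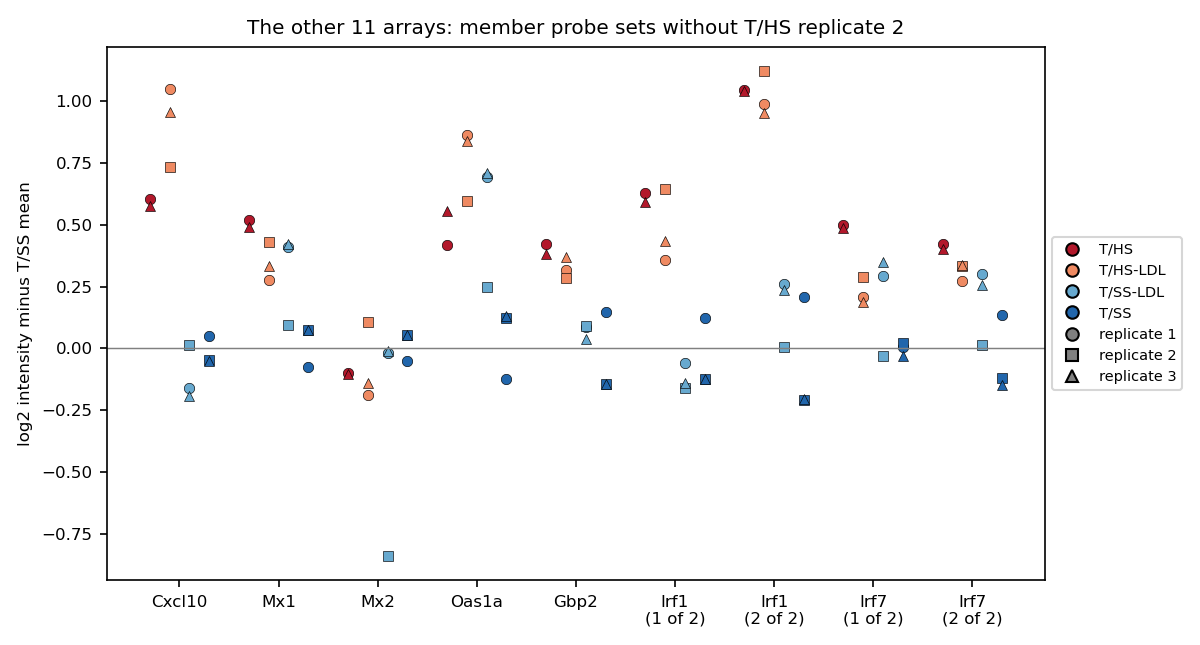
Log2 intensity of the 9 member probe sets minus the T/SS mean (y) for each probe set (x) on the 11 arrays other than T/HS replicate 2, coloured by group. The Irf1 and Cxcl10 points of both shocked groups lie above those of both sham groups, and the Oas1a points of T/SS lie below all others.

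The comparison of T/HS-LDL with T/SS-LDL addresses shock without lung injury. It holds none of the open-duct arrays by which the members were chosen, so it was tested. Earlier results of these data were known at that choice, so the test is not shown to be independent of it. The test was limma's, fitted to all 8740 probe sets of the ligated groups alone, with p-values adjusted over all of them by the Benjamini-Hochberg method. No member passed at an adjusted p of 0.05, and 0% of all probe sets did. At an unadjusted p under 0.05 there were 3 of 9 member probe sets, those of Irf1 and Cxcl10, all higher in T/HS-LDL, where 1.77% of all probe sets were higher at that level.

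The brighter Irf1 set had 6503, 7136 and 6347 units in T/HS-LDL, against 3930, 3295 and 3861 units in T/SS-LDL. The groups did not overlap, and the difference was 0.92 ± 0.13 on the log2 scale (SE, 2 samples per group, limma adjusted p 0.75). The dimmer Irf1 set had 2226, 2714 and 2348 units in T/HS-LDL, against 1669, 1555 and 1577 units in T/SS-LDL, a difference of 0.65 ± 0.13 (limma adjusted p 0.998). Cxcl10 had 383, 308 and 360 units in T/HS-LDL, against 165, 187 and 162 units in T/SS-LDL, a difference of 0.95 ± 0.14 (limma adjusted p 0.82). The unadjusted limma p-values were 0.00132 and 0.00452 for Irf1 and 0.00163 for Cxcl10.

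The antiviral effectors and Irf7 differed less between the ligated groups. Gbp2 had 212, 207 and 220 units in T/HS-LDL, against 181, 181 and 175 units in T/SS-LDL. It did not overlap, and its difference was 0.24 ± 0.10 (limma adjusted p 0.998). Mx1 (0.11 ± 0.15), Mx2 (0.40 ± 0.30), Oas1a (0.25 ± 0.20) and Irf7 (0.10 ± 0.15 and 0.17 ± 0.13) overlapped, each with a limma adjusted p of 0.998. Mx1 had 755, 843 and 786 units in T/HS-LDL, against 829, 667 and 837 units in T/SS-LDL. Mx2 had 739, 905 and 764 units in T/HS-LDL, against 831, 470 and 835 units in T/SS-LDL. Oas1a had 5267, 4373 and 5176 units in T/HS-LDL, against 4685, 3436 and 4731 units in T/SS-LDL. The dimmer Irf7 set had 391, 413 and 386 units in T/HS-LDL, against 414, 331 and 431 units in T/SS-LDL. The brighter Irf7 set had 2547, 2657 and 2658 units in T/HS-LDL, against 2595, 2128 and 2514 units in T/SS-LDL. T/SS-LDL replicate 2 was the lowest of the 6 ligated arrays for 7 of 9 member probe sets, those of Mx1, Mx2, Oas1a, Irf1 and Irf7. The share of all probe sets lowest on that array was not counted, so nothing is read from this number. In all, 4 of 9 member probe sets did not overlap between these groups and were higher in T/HS-LDL (13.6% of all probe sets were, and 10.3% were lower). The median difference of the 7 genes was 0.25, against 0.01 for all probe sets. Without T/SS-LDL replicate 2, the differences of Mx1, Mx2 and the dimmer Irf7 set turned to -0.05, -0.02 and -0.08. Those of Oas1a and the brighter Irf7 set were then 0.02 and 0.04, while those of Irf1 were 0.62 and 0.80 and that of Cxcl10 1.05. With the near-identical arrays kept as separate samples, Cxcl10 and Irf1 passed at an adjusted limma p of 0.05. That setting counts each near-identical pair as 2 samples, so nothing is read from these calls. The closing section gives the number of all probe sets called in it.

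Ligation alone, T/SS-LDL against T/SS, is a description here, since T/SS is the control of the open-duct shock comparison. Oas1a had 4685, 3436 and 4731 units in T/SS-LDL, against 2653, 3150 and 3167 units in T/SS, a difference of 0.47 on the log2 scale. Mx1 had 829, 667 and 837 units in T/SS-LDL, against 593, 658 and 658 units in T/SS, a difference of 0.25. These 2 of 9 member probe sets did not overlap and were higher in T/SS-LDL (14.7% of all probe sets were, and 22.5% were lower). The other 7 overlapped. Gbp2 had 188, 154 and 154 units and Mx2 811, 873 and 873 units in T/SS. The Irf7 sets had 339, 344 and 332 units and 2312, 1935 and 1902 units in T/SS, and the dimmer Irf1 set 1894, 1594 and 1594. The T/SS-LDL values of these genes are those given above, and the median of the 7 genes was 0.13, against -0.02 for all probe sets.

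Ordered by their means, the T/HS group stood highest for every member, with an SD of 1.32 to 4.80 on the log2 scale (2 samples) that reflects the gap between T/HS replicate 2 and the other T/HS arrays. T/HS-LDL came second for all members but Mx2, where T/SS came second. For Cxcl10, Irf1 and Gbp2 the T/HS-LDL arrays lay wholly above the next group, and the sham groups overlapped below them. For Mx1 and Oas1a the step lay elsewhere: T/HS-LDL and T/SS-LDL overlapped, and both lay above T/SS. For Mx2 all neighbouring groups overlapped, and for Irf7 each neighbouring pair below T/HS did.

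The members varied together mainly through 1 lung. Over the 8 samples, Pearson's r between pairs of the 7 genes was 0.874 to 0.997 (21 pairs, median 0.944). Over the 7 samples without T/HS replicate 2 it was 0.0308 to 0.925, with a median of 0.636. These samples share arrays, tissue and groups, and the values are descriptions.

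The wider interferon pathway was read from 8 lists of genes other than the members, sorted by role, in which 47 of 157 listed genes had a probe set of their own. Limma called 0 of the 47 at an adjusted p of 0.05 in each of the 4 comparisons, as it called 0% of all probe sets. At an unadjusted p under 0.05, 11 of 47 were higher and 0 lower in T/HS against T/SS (3.66% and 5.14% of all probe sets). In T/HS against T/HS-LDL 8 were higher and 0 lower (1.97% and 4.41%). In T/HS-LDL against T/SS-LDL 1 was higher and 0 lower (1.81% and 1.98%) in this fit of all 4 groups, in which 0 of the 9 member probe sets reached that level. In the fit of the ligated groups alone, which gave the members' 3 of 9, there were 4 of 47 higher (Cd14, Gch1, Tap1 and Tap2, the partner of Tap1 in the peptide transporter) and 1 lower (RT1-M3-1, a class I gene), against 1.77% and 2.03% of all probe sets. In T/SS-LDL against T/SS 0 were higher and 1 lower (1.73% and 2.51%), again in the fit of all 4 groups. That fit gives each gene 1 spread for all groups, which includes the gap between T/HS replicate 2 and the other T/HS arrays. For Cxcl10 the SE between the ligated groups was 1.84 in it, against 0.14 in the fit of the ligated groups alone. Low counts in the fit of all 4 groups therefore do not show that levels were alike. The median of the 47 in T/HS against T/SS was 0.44 on the log2 scale, and 0.16 without T/HS replicate 2.

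On T/HS replicate 2, 30 of the 47 pathway genes lay above each of the other 11 arrays, as did 9.59% of all probe sets, while 16.6% of all probe sets lay below each of them. Over 2-fold above the mean of the other T/HS arrays were 16 of 47, against 2.36% of all probe sets. The topic was chosen because interferon genes were high on this array, and the lists were made with earlier results of these data known. These counts, and those of the comparisons with T/HS, are therefore descriptions and no independent support. The genes were unevenly spread over the roles, as follows.

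Both measured interferon genes lay within the range of the other arrays in that lung. Ifnb1, which encodes interferon beta, had 165 units in T/HS replicate 2, against 194 and 191 units in the other T/HS arrays and 157 to 194 over all others. Ifng, which encodes the interferon of T cells and NK cells, had 335 units there, against 361 and 343 units in the other T/HS arrays and 270 to 361 over all others. The second Ifng probe set had 134 units there, against a mean of 109 units in the other T/HS arrays and 107 to 147 over all others. Both genes were dim, and interferon alpha genes were not analysed here. Of the receptor chains, Ifngr1 had 1277 units in T/HS replicate 2, below the 1411 to 2018 units of all others, and Ifnar1 had 997 units, above the 685 to 884 units of all others.

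Among the 10 measured signal carriers and inhibitors, 4 lay above all other arrays on T/HS replicate 2. Stat2, a part of the factor that binds the ISRE, had 8388 units, against 2224 and 2281 units in the other T/HS arrays and 1400 to 2296 over all others. Jak2, a kinase of the interferon gamma receptor, had 1533 units, against 670 and 697 units in the other T/HS arrays and 598 to 843 over all others. The remaining interferon regulatory factors differed less: Irf8 had 1764 units, against 444 to 1084 over all others, while Irf2 (1327 units) lay within the range of the others and Irf3 (3091 units) below it. Of 5 sensors and adaptors, 0 were over 2-fold above the other T/HS arrays. Cd14, which hands bacterial lipopolysaccharide to its receptor, was 1.90-fold above them, and Tbk1, a kinase that activates Irf3, had 3131 units, within the 1866 to 3144 units of all others.

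Of 7 other antiviral genes 6 lay above all other arrays. Rsad2, which encodes the antiviral enzyme viperin, had 19738 units on T/HS replicate 2 by the probe set with the higher mean over all samples, against 1374 to 1799 units over all others. Its second probe set had 31398 units, the array's ceiling, against 848 to 1059. Eif2ak2, a kinase that stops translation on sensing double-stranded RNA, had 6115 units, against 740 to 1114 over all others. Of 7 chemokine and effector genes of interferon gamma 5 lay above all other arrays. Gch1, which makes the cofactor of nitric oxide synthase, was 4.58-fold above the other T/HS arrays and Casp1, the protease that matures interleukin 1 beta, 2.90-fold. Ccl5, a chemokine for T cells, was below all others, at 7395 units against 7665 to 15508.

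All 11 measured genes of MHC class I presentation lay above all other arrays on T/HS replicate 2. The differences ran from 0.13 (RT1-A) to 3.47 (Tap1) on the log2 scale, with a median of 1.14. Tap1, a peptide transporter, had 17936 units, against 1534 to 2490 units over all others. RT1-S3, a class I heavy chain gene, had 17908 units by its brightest probe set, against 3412 to 5386 over all others. The RT1 genes are near-identical copies, and which of them a probe set reads is uncertain. RT1-A (29133 units) and B2m (29968 units), the heavy and light chains of the class I molecule, were among the brightest probe sets on all arrays.

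**Figure D4:**
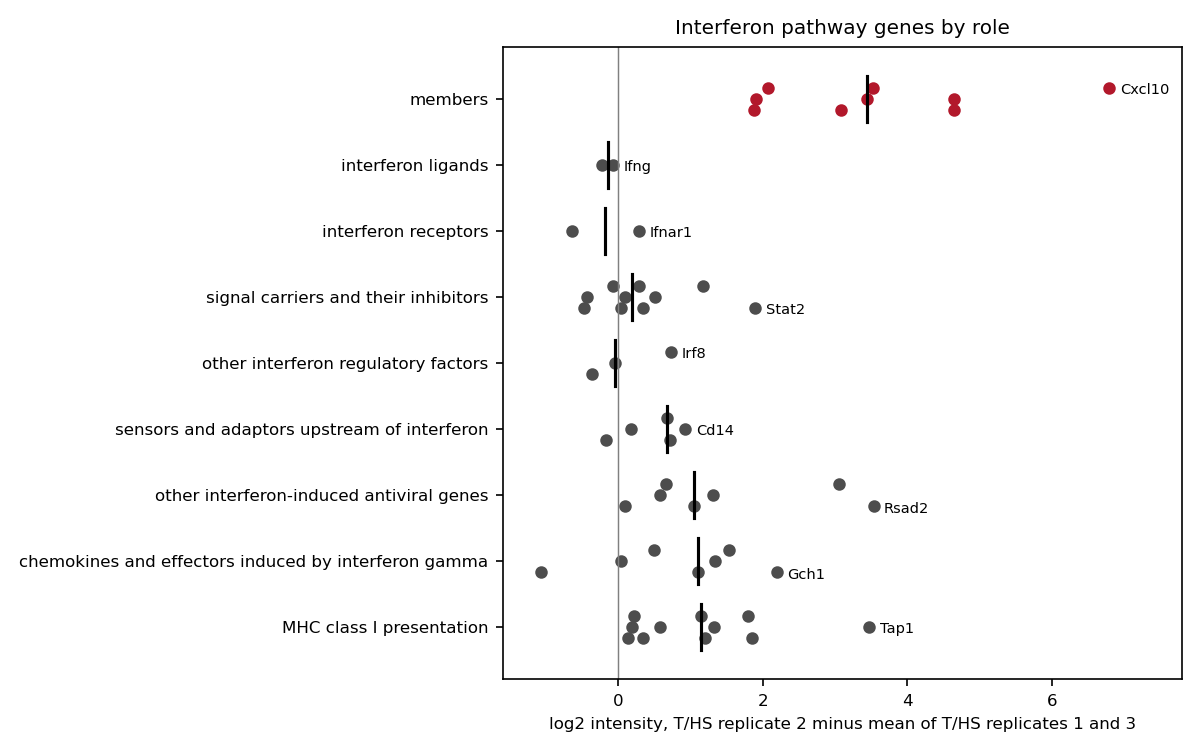
Log2 intensity on T/HS replicate 2 minus the mean of T/HS replicates 1 and 3, for the 9 member probe sets (red) and for the 47 other pathway genes by role (grey), with a bar at the median of each row. The 2 interferon genes lie at -0.22 and -0.07, while the antiviral, effector and class I rows have medians of 1.05, 1.10 and 1.14.

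Markers of blood and immune cells also differed on T/HS replicate 2, and their part in the members' levels was not tested. The summed level of 10 of 20 neutrophil markers was 75248 units in T/HS replicate 2 and 39167 and 40593 units in the other T/HS arrays. It was 65072 to 74850 units in T/HS-LDL, 36596 to 46991 in T/SS-LDL and 24378 to 29915 in T/SS. Most of it on T/HS replicate 2 came from Lcn2 (27298 units), S100a9 (25752) and S100a8 (10731). Of the 10 markers, 3 were over 2-fold above the other T/HS arrays (2.36% of all probe sets were). Fgr and Defa5 were not above them, at 0.968 and 0.958 of their mean. The sum of 6 of 14 monocyte and macrophage markers was 43106 units in T/HS replicate 2, against 37713 to 37761 in the other T/HS arrays. It was 32351 to 42314 in T/HS-LDL, 34188 to 34933 in T/SS-LDL and 34425 to 36523 in T/SS. Most of it on T/HS replicate 2 was Lyz2, at the array's ceiling of 31398 units. The gap from the other T/HS arrays came from Cd14 (8918 units against a mean of 4690) and Fcgr2b (2091 against 754). Both lay above all other arrays (9.59% of all probe sets did). Lyz2, Csf1r, Ccr2 and Itgam were slightly below the mean of the other T/HS arrays. The sum of 16 of 20 T and NK cell markers was 10494 units in T/HS replicate 2, against 16756 and 17556 in the other T/HS arrays, a gap made mostly by Cd2. It was 8867 to 10356 in T/HS-LDL, 9121 to 9770 in T/SS-LDL and 9856 to 10278 in T/SS. Other markers of this list went the other way on T/HS replicate 2. Gzmb (1544 units against a mean of 613 in the other T/HS arrays) and Prf1 (679 against 509) lay above all other arrays (9.59% of all probe sets did). Cd3d and Cd4 lay below all others (16.6% did). Dendritic cell markers (2 of 9) summed to 580 units in T/HS replicate 2, against 537 and 552 in the other T/HS arrays, and the 1 measured B cell marker of 10, Cd79b, had 565 units, against 607 and 644. Endothelial markers (5 of 9) summed to 13252 units there, below the 16108 to 22916 units of all other arrays. Pecam1, Kdr and Car4 lay below all other arrays (16.6% of all probe sets did), and Vwf and Nos3 lay within their range. The gap from the other T/HS arrays came mostly from Car4 (2519 units against a mean of 5565) and Pecam1 (4498 against 6561). No marker is listed at 0, a value these arrays do not give; Itgam (93.2 units), Cd28 (79.3 units) and Cd2 (107 units) were near the low end in T/HS replicate 2. Sums of heart muscle (9 of 10 markers), adipose (5 of 6) and red blood cell and platelet (4 of 8) markers were 20072, 19196 and 45813 units in T/HS replicate 2. In the other T/HS arrays they were 23735 to 24085, 24769 to 24998 and 48422 to 48527 units.

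By Pearson's r with the mean of the 7 members over 8 samples, the closest other genes were Dbnl, Olr1, Ccl2, Irgm2, Slc16a1, Stat2, Rmdn3 and Rsad2 (r of 0.988 to 0.992). They span 0.71 to 5.21 on the log2 scale, and each was higher on T/HS replicate 2 than on the other T/HS arrays, by 0.71 to 5.15. Over the 7 samples without it, the closest were Myc (r of 0.968), Arhgap25, Il1b, Btg1, Hmox1, Cebpd, Vav1 and Pcyt1a (r of 0.932 to 0.949), so the lists shared 0 genes.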

How the data were processed

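Values are intensities on a linear scale, which the authors made with RMA per the submitters' processing notes (version and settings not given) and deposited as 1 table of 12 arrays. The values were only log2-transformed. The 59 array controls among the 8799 probe sets were dropped. Platform annotation gave 1 symbol to 7006 of the remaining 8740, several to 308 and none to 1426, and symbols were updated through gene identifiers. Arrays of a group with a robust SD of log2 differences under 0.1 were averaged. Limma 3.58.1 in R 4.3.3 (lmFit, eBayes) was fitted to the 4 groups with 8 samples, and to the 2 ligated groups with 4 samples for the members. The fit was checked on simulated data in which all groups had equal spread. That check does not cover genes such as the members, whose spread in T/HS came from 1 array. A gene with several probe sets is given by the brightest in lists and medians.

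Named genes are all member probe sets, the 2 genes per pathway list with the largest difference between T/HS replicate 2 and the other T/HS arrays, the 8 genes most like the members by each r, and the 8 largest rises and 4 largest falls on T/HS replicate 2. Irf3, Ccl5, RT1-A, RT1-M3-1, Tap2 and B2m values and the single marker genes were chosen after their values were seen. The members and lists were chosen with earlier results of these data known. The number of arrays limits the precision. Same-numbered arrays of different groups had deviations that correlated at -0.166 to 0.189 (18 pairs, 3 above 0.1), and the labels tie the numbers to nothing, so no pairing was used. The closing section gives the alternatives tried.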

Additional observations from a re-analysis of the deposited data

Results flagged for a closer look

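Mx1 differed in opposite directions with ligation in shocked and in sham-shocked lungs, and the arrays of the compared groups did not overlap. It was lower in T/HS-LDL (755 to 843 units) than in T/HS (878 to 22179 units), and higher in T/SS-LDL (667 to 837 units) than in T/SS (593 to 658 units). The ligation effect was -2.46 on the log2 scale with shock and 0.25 without, a difference of -2.71 that was not tested. Without T/HS replicate 2, the array by which the members were chosen, T/HS exceeded T/HS-LDL by only 0.14 in Mx1. Most of the -2.46 thus came from that array.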

How the results depend on the processing

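The alternatives were the 12 arrays as separate samples, with the replicate number as a block, or with the averaged sample as a random block; no probe sets from the dimmest 25%; a second quantile normalization; an offset of 50; a variance trend; only the groups compared; the mean over a gene's probe sets; and each of the 8 samples left out. Limma called 0 probe sets in all 4 comparisons in the main setting. With 12 separate arrays it called 629 for T/HS against T/SS, 372 for T/HS against T/HS-LDL, 127 between the ligated groups and 141 between the sham groups, where each near-identical pair counts as 2 samples. The replicate block on the 12 arrays gave 456, 130, 47 and 21 in the same order, though the numbers do not pair the arrays, and the random block gave 25 for T/HS against T/SS. Leaving out 1 sample gave 0 to 139, 0 to 66, 0 to 2 and 0 to 2; the lone sample left in a group is assumed to vary like the other groups. For T/HS against T/SS and T/HS against T/HS-LDL, the counts were 139 and 66 without T/HS replicates 1 and 3, and 5 and 4 without T/HS replicate 2.

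Of the 47 other pathway genes, 0 were called in the main setting. For T/HS against T/SS and T/HS against T/HS-LDL, 12 separate arrays gave 4 and 4, the replicate block 3 and 1, and leaving out 1 sample 0 to 17 and 0 to 12, the highest without T/HS replicates 1 and 3. Of the members, 2 were called between the ligated groups with 12 separate arrays, and 0 with any sample left out. The members' median difference with 1 sample left out ranged over 0.49 to 3.49 for T/HS against T/SS, -0.0018 to 3.45 for T/HS against T/HS-LDL, 0.0417 to 0.476 between the ligated groups and -0.0682 to 0.249 between the sham groups. The lowest value between the ligated groups came without T/SS-LDL replicate 2, as did the reversals of Mx1 and Mx2, whose differences ranged over -0.0477 to 0.273 and -0.0150 to 0.811 with 1 sample left out. The dimmer Irf7 set turned too, to -0.0771. The cause was not tested. The ceiling limits the largest differences.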

Other observations

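T/HS replicate 2 also held high levels of Olr1, a scavenger receptor for oxidised lipoprotein, though its probe sets disagreed. The probe set with the largest rise had 3993 units, against 227 and 227 units in the other T/HS arrays. The 9 arrays of the other groups had 167 to 377 units. Another Olr1 probe set rose by 2.72 on the log2 scale. A further Olr1 probe set had 134 units, against a mean of 110 units in the other T/HS arrays. Ccl2, a chemokine for monocytes, had 3671 units, against 346 and 370 units in the other T/HS arrays and 211 to 383 in the other groups. Irgm2, an interferon-induced GTPase, had 7356 units, against 794 and 747 in the other T/HS arrays and 414 to 852 in the other groups. Of the genes on the interferon lists, RT1-S3, a class I gene, had 4124 units by one of its dimmer probe sets, against 548 and 544 in the other T/HS arrays and 438 to 809 in the other groups. Nos2, the inducible nitric oxide synthase and also on the lists, disagreed between its 4 probe sets: one was 9.997-fold above the other T/HS arrays and the rest 1.03-fold to 1.54-fold.

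Among the largest falls, Cd2, an adhesion molecule of T cells, had 107 units in T/HS replicate 2, against 4259 and 5089 units in the other T/HS arrays and 99.7 to 152 units in the 9 arrays of the other groups. Here T/HS replicates 1 and 3 stand apart, not replicate 2. Cyp2e1, a cytochrome P450, had 311 units, against 1533 and 1540 units in the other T/HS arrays and 961 to 3735 in the other groups. Slc29a1, a nucleoside transporter, had 1174 units, against 5178 and 5290 units in the other T/HS arrays and 4393 to 9004 in the other groups. S100g, a calcium-binding protein, had 1197 units, against 5429 and 4961 units in the other T/HS arrays and 1235 to 7412 in the other groups.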
